A study of Mus musculus with 24 samples.

Results

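Kruppel-like factors are transcription factors that bind CACC-box and GC-rich DNA through zinc fingers at the carboxyl terminus, and 10 of their genes were followed here through every peak list of a mouse fibroblast ChIP-seq series. The genes were Klf2, Klf3, Klf4, Klf5, Klf6, Klf7, Klf9, Klf10, Klf13 and Klf15, taken by name from the 22350 protein-coding genes of the mm9 annotation on the autosomes and X, each with its gene body and 10 kb on each side. The series held 24 libraries, of which 7 were inputs and 17 gave a peak list: 7 for H3K4me3, a mark of active promoters, 7 for H3K27ac, a mark of active promoters and enhancers, and 3 for PRRX1, a homeodomain transcription factor of mesenchymal cells. Each combination of cell, genotype and antibody was 1 library, so values are set side by side, with no test and no replicate spread.

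All cells were primary fibroblasts immortalised with the HPV E6 and E7 genes, WT controls included. MEF were mouse embryonic fibroblasts of strain C57BL/6 taken between embryonic days 10 and 13. MMTV-CAF, of strain FVB/NJ, were fibroblasts associated with the breast tumours of MMTV-PyMT mice, in which the MMTV promoter drives the polyoma middle T oncogene in mammary epithelium. Wound-healing fibroblasts came from dorsal skin of C57BL/6 mice on day 10 after wounding. SG cells of all 3 types had Prrx1 disrupted by CRISPR/Cas9 with a guide RNA against it, and MEF KI came from mutant embryos named 129S-Prrx1tm1Jfm/Mmmh, although their strain is given as C57BL/6. The paper describes this allele as a knock-in of lacZ, in frame, into the homeodomain part of Prrx1. The control named for the edited cells was sgNS, and whether the MEF WT library, which comes from WT embryos and serves as control for both SG and KI, also carried it was not given in the sources used here. The number of clones or of pooled animals behind a line was not given in the sources used here. MMTV-CAF differ from the other types in strain as well as in origin, and strain and origin cannot be told apart. Below, a pair of values is WT and then SG of the named type.

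The family falls into groups by the partner that its amino-terminal part recruits. Klf2, Klf4, Klf5, Klf6 and Klf7 mainly activate transcription with histone acetyltransferases such as p300. Klf3 represses through CtBP, and Klf9, Klf10 and Klf13 repress through SIN3A and its histone deacetylases. Several members respond quickly to serum, shear, TGF-β or glucocorticoid, and in fibroblasts they are known from growth control, reprogramming and fibrosis.

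H3K27ac summits lay at 8 of 8 fibroblast marker genes in all 7 lists, with a median summed −log10 p of 68.5 to 345, against 1 to 3 of 6 epithelial markers (medians 0 to 10.7, highest gene 164), 1 to 3 of 4 endothelial markers (0 to 34.6, highest 226) and 1 to 2 of 4 leukocyte markers (0 to 38.3, highest 209). Epcam, Krt5, Ptprc and Cd3e had no H3K27ac summit in any list. Prrx1 itself kept an H3K4me3 region of 4558 to 15484 bp in all 7 lists, edited cells included, so these lists do not check the deletion. The MEF KI lists were shorter and weaker than those of MEF WT. They held 29325 H3K27ac summits against 44918, with a median −log10 p of 11.9 against 18.5, and a median H3K4me3 fold enrichment over input of 3.59 against 4.97. Library depths were unknown, so differences between lists are read against the shift of all genes.

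PRRX1 summits were found at 4 of the 10 genes, and the sequences below show what lies under the highest summit of each. The PRRX1 lists reach down to a −log10 p of 3.0 to 3.05, lower than the cutoff stated for peak calling. At a minimum of 5, the Klf2 summit (4.53) and the MMTV-CAF summit of Klf7 (3.63) drop out, which leaves 2 of the 4 members with a summit in MMTV-CAF. Each window is 201 bp of mm9, 100 bp on each side of the summit, on the strand of the gene, in lower case, with every TAATTA (the palindromic homeodomain word) and every CCACNCCC on either strand (the word that Kruppel-like factors bind) in capitals, overlapping matches included. The first 4 are the highest summits inside the windows of their genes: an intron of Klf2 in MMTV-CAF (chr8:74844317-74844517, plus strand), the sequence downstream of Klf3 in MEF (chr5:65226085-65226285, plus strand), an intron of Klf7 in wound-healing fibroblasts (chr1:64138938-64139138, minus strand) and the promoter of Klf9 in MMTV-CAF (chr19:23215153-23215353, plus strand). The last pair lie outside genes, further out at −36.8 kb from Klf4 (chr4:55582044-55582244, minus strand) and −25.7 kb from Klf13 (chr7:71109440-71109640, minus strand), both in MEF, and are the highest PRRX1 summits within 50 kb of these genes, which held none in their windows. They were added after their values were seen.
Klf2: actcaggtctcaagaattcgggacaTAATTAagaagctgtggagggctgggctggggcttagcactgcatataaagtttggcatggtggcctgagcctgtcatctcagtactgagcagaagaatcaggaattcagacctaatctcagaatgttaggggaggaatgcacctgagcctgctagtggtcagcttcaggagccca
Klf3: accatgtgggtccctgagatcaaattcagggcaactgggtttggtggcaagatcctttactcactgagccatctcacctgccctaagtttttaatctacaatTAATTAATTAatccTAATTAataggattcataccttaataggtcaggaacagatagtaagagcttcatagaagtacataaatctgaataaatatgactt
Klf7: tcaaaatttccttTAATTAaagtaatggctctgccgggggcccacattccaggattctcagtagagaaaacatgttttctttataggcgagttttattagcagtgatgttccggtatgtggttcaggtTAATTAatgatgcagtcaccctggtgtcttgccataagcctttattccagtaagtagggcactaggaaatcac
Klf9: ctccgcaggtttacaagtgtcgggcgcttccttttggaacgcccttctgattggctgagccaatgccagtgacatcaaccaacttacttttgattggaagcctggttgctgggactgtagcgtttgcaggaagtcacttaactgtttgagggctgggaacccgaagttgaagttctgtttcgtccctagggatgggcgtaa
Klf4: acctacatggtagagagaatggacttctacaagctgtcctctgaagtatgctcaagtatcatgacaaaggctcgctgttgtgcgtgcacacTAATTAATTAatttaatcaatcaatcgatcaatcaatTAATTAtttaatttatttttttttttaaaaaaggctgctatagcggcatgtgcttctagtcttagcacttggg
Klf13: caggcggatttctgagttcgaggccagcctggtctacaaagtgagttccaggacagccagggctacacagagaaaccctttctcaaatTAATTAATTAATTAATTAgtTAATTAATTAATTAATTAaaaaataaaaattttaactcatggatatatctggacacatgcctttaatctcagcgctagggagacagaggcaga
No window held CCACNCCC. The number of TAATTA matches was 1 at Klf2, 3 at Klf3, 3 at Klf4, 2 at Klf7, 8 at Klf13, where they overlap in tandem ATTA repeats, and 0 at Klf9. Over all PRRX1 summits of a list, TAATTA was present in 69.1% of 3048 windows in MEF, 35.4% of 8000 in MMTV-CAF and 41.9% of 5698 in wound-healing fibroblasts, and CCACNCCC in 5.48%, 6.04% and 6.97%.

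The H3K4me3 regions of the family were wide. A region over 4 kb, called broad here, covered a start site of 6 members in MEF WT, 6 in wound-healing WT and 7 in MMTV-CAF WT, while 9.45%, 8.83% and 28.9% of all genes with a region at a start site had one that wide. Klf3, Klf4, Klf7 and Klf13 were broad in all 3 WT types, as were 6.71% of the genes with a region in all 3. In the altered cells, 0 members were broad in MEF KI, 5 in MEF SG, 7 in wound-healing SG and 8 in MMTV-CAF SG, beside 3.59%, 7.0%, 15.5% and 24.2% of genes. These counts ask that a region overlap an annotated start base, and several regions began just downstream of one. At Klf6 the region began 59 to 113 bp after the start site in MEF KI, MEF SG and both wound-healing lists, and Klf2 and Klf13 in MEF KI were missed in the same way. With any region within 500 bp of a start site, a rule added after seeing the data, the median width over members with a region was 4200 bp in MEF WT, 6755 bp in MMTV-CAF WT and 4166 bp in wound-healing WT, against 2207, 2986 and 2030 bp over all genes. The widths and width ratios of single members given below follow this wider rule, whereas counts of members past a threshold, and the shares of all genes beside them, keep the start-base rule unless 500 bp is named.

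**Figure D1:**
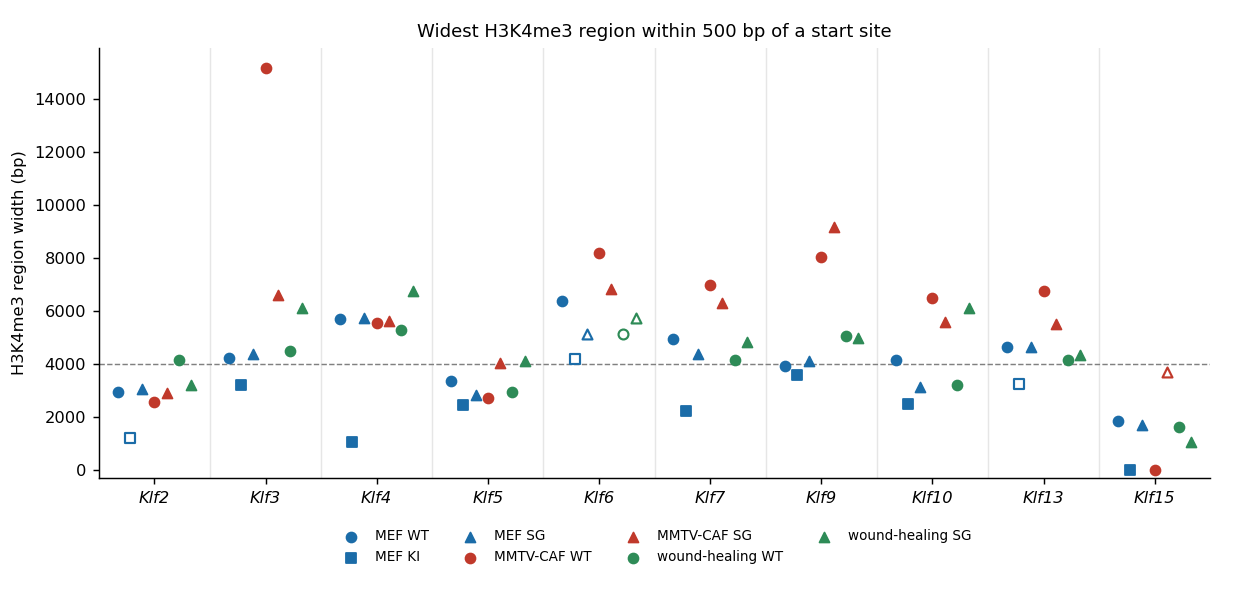
Width in bp (linear axis) of the widest H3K4me3 region within 500 bp of a start site for each member in the 7 lists, with 1 library per point. Colours mark fibroblast type, circles WT, triangles SG and the squares KI; open symbols are regions that do not overlap a start base, points at 0 have no region, and the dashed line marks 4 kb. Klf3 in MMTV-CAF WT, at 15178 bp, stands above every other value.

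In summed H3K27ac, the median member lay above the median gene in every list. The median sum of −log10 p over the 10 members was 121 in MEF WT, 108 in wound-healing WT and 191 in MMTV-CAF WT, against 36.3, 20.8 and 44.4 over all genes. Single members lay below it, Klf2 (24.8) and Klf15 (14.1) in MEF WT, Klf15 (7.57) in wound-healing WT, and Klf2 (42.9), Klf5 (36.9) and Klf15 (0) in MMTV-CAF WT. Per 10 kb of window, Klf6 had the highest sum in MEF WT (111) and MMTV-CAF WT (85.8), and Klf3 (64.2) ahead of Klf6 (54.8) in wound-healing WT. Klf15 was lowest in all 3, at 4.33, 0 and 2.32. Summits lying within 12.5 kb of each other were joined, the resulting clusters were ordered by their total −log10 p, and those past the point where the ranked curve turns up were called super-enhancers. The authors instead called super-enhancers with the ROSE algorithm, so the measures differ. They report Klf4 and Klf13 among factors associated with super-enhancers and broad H3K4me3 in all 3 fibroblast types. By the cluster rule used here, a super-enhancer overlapped the windows of 4 members in each WT type, while 10.4%, 10.9% and 7.40% of all genes had one in MEF, MMTV-CAF and wound-healing WT. The counts were 1 in MEF KI (4.06% of genes), 4 in MEF SG (11.5%), 3 in wound-healing SG (11.9%) and 5 in MMTV-CAF SG (10.5%).

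**Figure D2:**
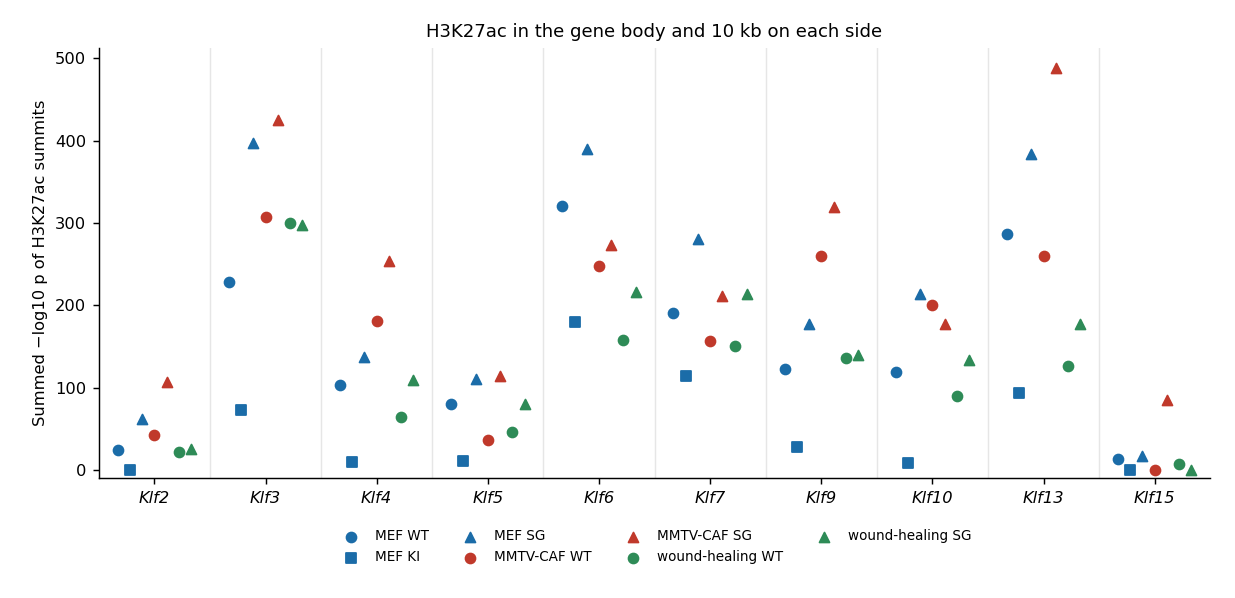
Summed −log10 p of the H3K27ac summits (linear axis) in the gene body and 10 kb on each side, for each member in the 7 lists, with 1 library per point. Colours mark fibroblast type and shapes genotype; windows differ in length between genes, so heights compare lists within a gene. Klf3, Klf6 and Klf13 reach 390 or more in at least 1 SG list, Klf15 lies at or near 0 except for 85.2 in MMTV-CAF SG, and MEF KI (squares) is lowest or tied lowest for 9 of the 10 genes.

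Among the activators, Klf6 (chr13:5860735-5869639, plus strand), an injury-induced factor and tumour suppressor, was broad in every list by the wider rule. The H3K4me3 region measured 6395, 4210 and 5153 bp across MEF WT, KI and SG, 8187 and 6837 bp for the MMTV-CAF pair, and 5152 and 5755 bp for the wound-healing pair. Fold enrichment ranged from 6.00 to 11.5. Its H3K27ac sum was 321, 180 and 390 across MEF WT, KI and SG, 248 and 273 for the MMTV-CAF pair, and 158 and 216 for the wound-healing pair. A super-enhancer overlapped Klf6 in all 7 lists, as it did for no other member, and its cluster was 104th of 13518 in MEF KI. Where the region began after the start site, a separate upstream piece of 260 to 428 bp was listed in MEF SG and both wound-healing lists and none in MEF KI.

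Klf4 (chr4:55540013-55545347, minus strand), a reprogramming factor that also drives epithelial differentiation, was 5279 to 6766 bp wide in every list but MEF KI. The region spanned 5703 bp in MEF WT and 5751 bp in MEF SG, 5571 and 5635 bp for the MMTV-CAF pair, and 5279 and 6766 bp for the wound-healing pair. In MEF KI there were 2 regions of 968 and 1060 bp on either side of the main start site, the second over an alternative start. H3K27ac at Klf4 differed more between types than the width did: the sum was 103 in MEF WT, 10.2 in MEF KI, 137 in MEF SG, 181 and 254 for the MMTV-CAF pair, and 65.1 and 110 for the wound-healing pair. By the cluster rule used here, unlike in the authors' calls, MMTV-CAF SG was the single list in which a super-enhancer overlapped Klf4, as cluster 999 of 19061. Over the 7 lists, the genes with the most similar H3K4me3 widths were Bbc3 (root-mean-square difference of 0.13 on the log2 scale), 2310003F16Rik (0.18) and Zcwpw1 (0.18), among 10721 genes with a region in every list.

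Klf7 (chr1:64076021-64168856, minus strand), known from axon growth and adipocyte differentiation, was broad in every list but MEF KI. Its region spanned 4945, 2220 and 4382 bp across MEF WT, KI and SG, 6973 and 6313 bp for the MMTV-CAF pair, and 4161 and 4846 bp for the wound-healing pair. The H3K27ac sums were 191, 114 and 280 in MEF WT, KI and SG, 157 and 212 for the MMTV-CAF pair, and 151 and 214 for the wound-healing pair. MEF KI was the lowest list for both marks, as it was or tied for at most members. The strongest H3K27ac summit of Klf7 lay between −696 and −610 bp of the main start site in 6 lists and at +366 bp in MEF KI.

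Klf5 (chr14:99697910-99712624, plus strand), a growth-promoting factor of gut epithelium and activated smooth muscle, had a narrower region. It was 3363, 2482 and 2835 bp wide in MEF WT, KI and SG, 2721 and 4063 bp for the MMTV-CAF pair, and 2953 and 4141 bp for the wound-healing pair. The SG list was past 4 kb in both adult types and in neither WT list. Its H3K27ac sum was 79.9, 11.1 and 111 across MEF WT, KI and SG, 36.9 and 115 for the MMTV-CAF pair, and 46.7 and 80.1 for the wound-healing pair. SG exceeded WT in all 3 types.

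Klf2 (chr8:74842932-74845555, plus strand), a factor of endothelial and lymphocyte quiescence, had its widest region in wound-healing WT. The region measured 2952, 1214 and 3074 bp in MEF WT, KI and SG, 2595 and 2910 bp for the MMTV-CAF pair, and 4171 and 3219 bp for the wound-healing pair. The MEF KI region did not reach the start base. Its H3K27ac sums were 24.8, 0 and 61.8 in MEF WT, KI and SG, 42.9 and 107 for the MMTV-CAF pair, and 22.3 and 25.5 for the wound-healing pair.

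Klf3 (chr5:65194628-65221368, plus strand), the CtBP-dependent repressor, had the widest region of the family. In MMTV-CAF WT a single region of 15178 bp ran from −1382 to +13795 bp around the main start site, wider than 99.8% of the regions of all genes in that list. In the other lists the signal was in pieces. The piece at the first start sites measured 4234 bp in MEF WT, 3225 bp in MEF KI, 4379 bp in MEF SG, 6623 bp in MMTV-CAF SG, 4492 bp in wound-healing WT and 6124 bp in wound-healing SG. A second piece of 3404 to 4150 bp, beginning between +6814 and +8095 bp, lay over the downstream start site in MEF WT, MEF SG, MMTV-CAF SG and both wound-healing lists, and no region lay there in MEF KI. The single MMTV-CAF WT region spanned the stretches that these pieces covered. H3K27ac sums at Klf3 were 228, 73.5 and 397 in MEF WT, KI and SG, 307 and 425 for the MMTV-CAF pair, and 300 and 297 for the wound-healing pair, from 5 to 13 summits. A super-enhancer overlapped it in every list but MEF KI, with its highest rank, 107th of 13901 clusters, in wound-healing WT.

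**Figure D3:**
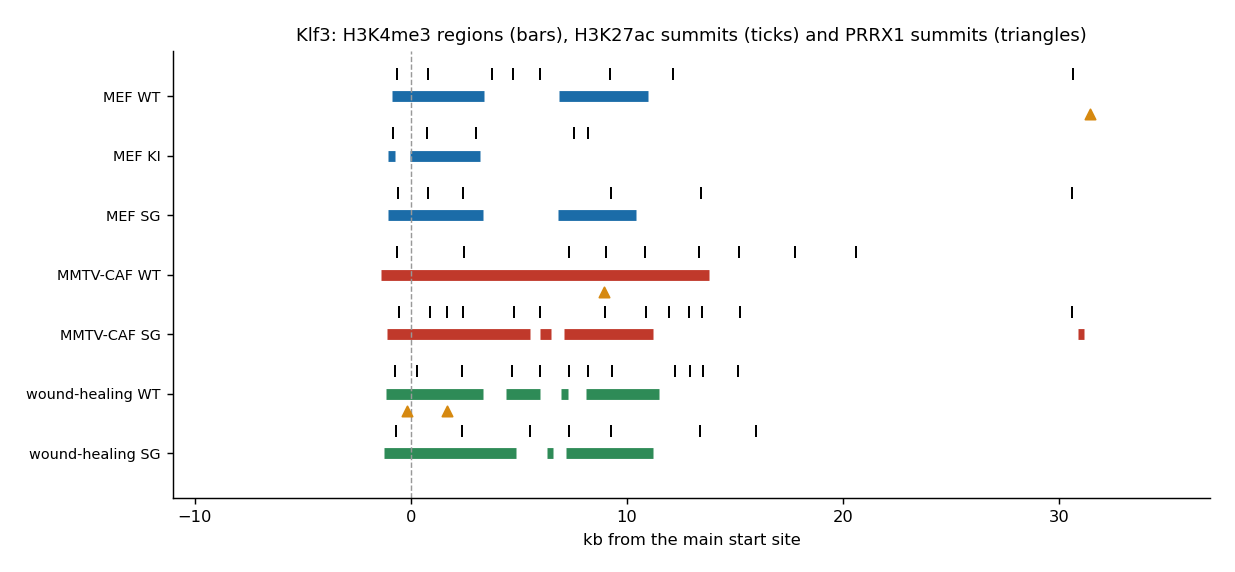
Map of Klf3 in kb from its main start site (dashed line), 1 row per list, with H3K4me3 regions as bars coloured by fibroblast type, H3K27ac summits as ticks above them and PRRX1 summits as triangles below the 3 WT rows. A single bar of 15178 bp covers both groups of start sites in MMTV-CAF WT, the other lists but MEF KI have separate bars there, and no triangle repeats at the same place in another type.

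Of the SIN3A-dependent repressors, Klf9 (chr19:23215716-23241401, plus strand), a target of glucocorticoid and thyroid hormone, was most marked in MMTV-CAF. Its region spanned 3919, 3583 and 4140 bp in MEF WT, KI and SG, 8029 and 9184 bp for the MMTV-CAF pair, and 5079 and 4988 bp for the wound-healing pair. The H3K27ac sums were 123, 28.7 and 178 in MEF WT, KI and SG, 260 and 319 for the MMTV-CAF pair, and 136 and 140 for the wound-healing pair. In MMTV-CAF WT and SG the window held 7 and 9 summits, against 2 to 5 elsewhere. In MMTV-CAF WT 5 of the 7 lay between +5381 and +10424 bp, a stretch with 1 summit, at +9297 bp in wound-healing SG, over all lists of the other types. An upstream summit between −5386 and −4707 bp recurred in all 7 lists.

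Klf10 (chr15:38221219-38230464, minus strand), first found as a TGF-β-inducible early gene, differed between genotypes in its width. It was 4166 bp wide in MEF WT, 2502 bp in MEF KI, 3140 bp in MEF SG, 6498 and 5584 bp for the MMTV-CAF pair, and 3216 and 6138 bp for the wound-healing pair. The signal was split in some of these lists: a separate region downstream of the start site measured 980 bp in MEF SG, 453 bp in MEF KI and 849 bp in wound-healing WT, and is left out of those widths. Over all bases covered within 5 kb of the start site, the log2 ratio of SG to WT was −0.02 for MEF, 0.59 for wound-healing fibroblasts and −0.22 for MMTV-CAF. The H3K27ac sum was 119 in MEF WT, 9.22 in MEF KI, 214 in MEF SG, 201 and 178 for the MMTV-CAF pair, and 90.1 and 134 for the wound-healing pair. The strongest summit stayed between +791 and +881 bp of the main start site in all 7 lists, and in MEF KI it was the only one.

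Klf13 (chr7:71031237-71083801, minus strand), a factor first described for its control of Ccl5 in T cells, had 9 to 14 H3K27ac summits across its long body in every list. Its H3K4me3 region spanned 4667, 3273 and 4670 bp in MEF WT, KI and SG, 6755 and 5507 bp for the MMTV-CAF pair, and 4154 and 4369 bp for the wound-healing pair, and the MEF KI region did not reach the start base. The sums were 287, 93.9 and 384 in MEF WT, KI and SG, 260 and 488 for the MMTV-CAF pair, and 126 and 178 for the wound-healing pair. Super-enhancers overlapped it in MEF WT and both MMTV-CAF lists. Itsn1 and Cryzl1, which share 1 region, had the widths most like those of Klf13 over the 7 lists (root-mean-square difference of 0.09 on the log2 scale), followed by Lox (0.11).

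Klf15 (chr6:90412570-90425232, plus strand), a glucocorticoid-responsive regulator of metabolism in muscle and liver, was the least marked member. A narrow region lay over its first start site in MEF WT (1879 bp), MEF SG (1696 bp), wound-healing WT (1637 bp) and wound-healing SG (1087 bp), and none in MEF KI or either MMTV-CAF list. In MMTV-CAF SG a region of 3727 bp ran instead from +3197 to +6923 bp, within 500 bp of the second start site, with 2 H3K27ac summits in it at +4049 bp (−log10 p of 76.3) and +5661 bp (8.87). Neither mark was listed near a start site in MMTV-CAF WT, whose single region in the window was 227 bp wide at +14.4 kb. The other H3K27ac sums were 14.1 in MEF WT, 16.9 in MEF SG and 7.57 in wound-healing WT, with 0 in MEF KI and wound-healing SG.

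**Figure D4:**
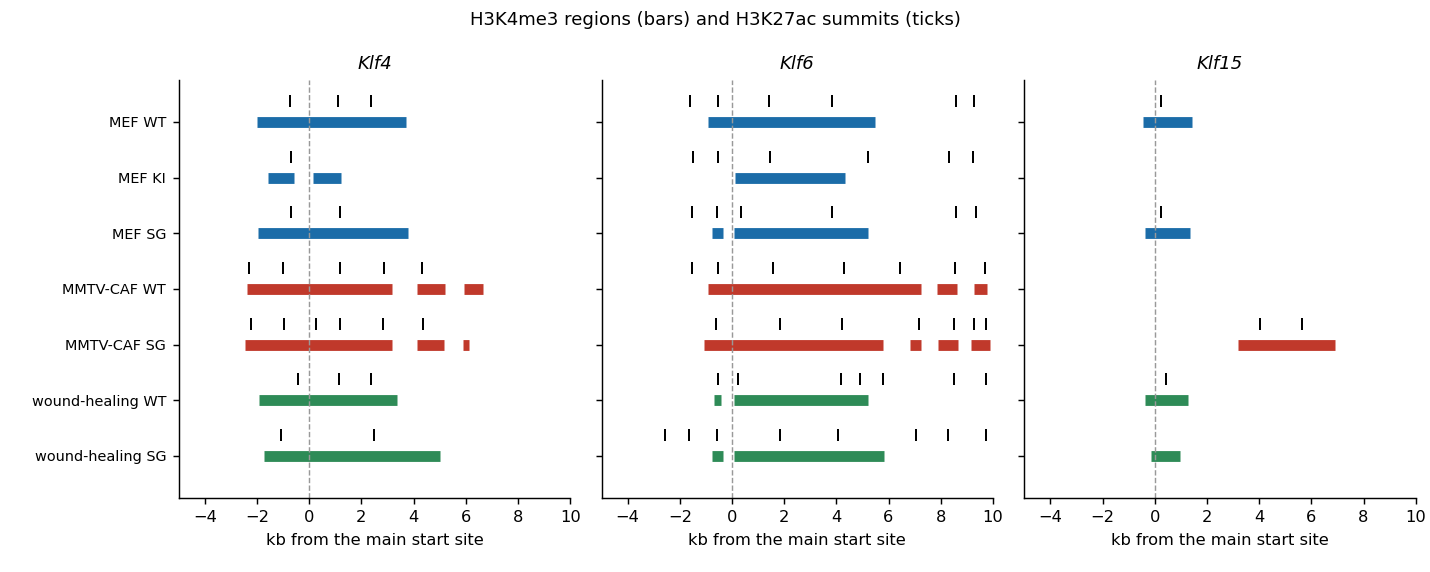
Maps of Klf4, Klf6 and Klf15 in kb from the main start site (dashed line) in the 7 lists, with H3K4me3 regions as bars coloured by fibroblast type and H3K27ac summits as ticks. In MEF KI the Klf4 region is reduced to pieces of 968 and 1060 bp, the main Klf6 region begins at or after +59 bp in 4 lists, and Klf15 has a region from +3197 to +6923 bp in MMTV-CAF SG alone.

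Between the WT types, the comparisons asked where the family is marked differently in embryonic, tumour and wound fibroblasts. In MMTV-CAF over MEF, Klf3 (3.58-fold), Klf9 (2.05-fold) and Klf10 (1.56-fold) were wider past 1.5-fold, 3 of the 9 members with a region in both, and none was narrower past it, against 29.0% of all genes wider and 2.12% narrower. The median gene was 1.32-fold wider in MMTV-CAF, and on the log2 scale Klf3 and Klf9 exceeded that shift by 1.44 and 0.64 but Klf10 by 0.24, short of 1.5-fold. By the start-base rule, Klf5 (−0.71) and Klf2 (−0.59) were narrower past 1.5-fold relative to the median gene. As bases covered within 5 kb, without that division, Klf5 was at −0.55 and Klf2 at 0.06. At Klf3, whose single long MMTV-CAF region was set against split regions, bases covered within 5 kb gave a log2 ratio of 0.59 in place of 1.84. That window leaves out the part of the MMTV-CAF region beyond 5 kb. In H3K27ac sum plus 10, called past 2-fold among genes with a sum of at least 20 in either list, Klf9 (2.02-fold) was the 1 member higher of 9 and none was lower, where 12.4% of genes were higher and 5.24% lower. That call ended relative to the median gene (0.72 on the log2 scale), with flanks of 50 kb (0.86), with summits of −log10 p of at least 10 (0.96) and with lists of equal size (0.90), and relative to the median gene Klf5 (−1.23) was lower past 2-fold. In wound-healing over MEF, 0 of 9 members passed the width threshold (4.10% of genes wider, 6.00% narrower). Klf13 alone passed the H3K27ac threshold there, at 0.458 of its MEF level, where 20.6% of genes were lower and 1.22% higher, and relative to the median gene, itself at 0.706, it was at −0.62 on the log2 scale, short of 2-fold. In MMTV-CAF over wound-healing, 5 of 8 members were wider (Klf3, Klf7, Klf9, Klf10 and Klf13) and Klf2 was narrower, at 0.622 of its wound-healing width, against 36.5% wider and 2.21% narrower over all genes. With regions within 500 bp, Klf6 (1.59-fold) joined the wider members, 6 of 9, against 36.7% of genes. The median gene was 1.38-fold wider in this comparison, and relative to it Klf3 (1.29 on the log2 scale) stayed past 1.5-fold whereas Klf6, Klf7, Klf9, Klf10 and Klf13 (0.20 to 0.55) did not. Klf2 (−1.15) stayed narrower past 1.5-fold relative to the median gene. As bases covered within 5 kb, Klf3 (0.34), Klf9 (0.32) and Klf2 (−0.44) fell short of the threshold. H3K27ac was higher at Klf4 (2.54-fold) and Klf10 (2.10-fold) of 9 members, and lower at none, where 35.5% and 1.43% of genes were called. Relative to the median gene, which was 1.74-fold higher, Klf4 (0.55 on the log2 scale) and Klf10 (0.28) were no longer past 2-fold and Klf5 (−1.07) was lower past it.

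The question behind the altered cells was what loss of Prrx1 does to these marks, and at the family KI and SG gave different values in MEF. In MEF KI, the H3K27ac sum plus 10 was lower past 2-fold at 7 of 9 members and higher at none, while 76.0% of all genes were lower and 1.16% higher, so the count is near the background. The median ratio was 0.290 over the members and 0.361 over all genes. Klf10 (0.149), Klf4 (0.179) and Klf5 (0.234) were lowest, and Klf6 (0.573) and Klf7 (0.616) held more than the median gene did. Relative to the median gene, the log2 ratio was −1.27 at Klf10 and −1.01 at Klf4, and 0.77 at Klf7 and 0.67 at Klf6. The other 5 members called lay between −0.62 (Klf5) and −0.04 (Klf3 and Klf13), within 2-fold of it, and without flanks Klf5 (−0.83) and Klf9 (−0.97) lost their calls. Of the 48 MEF WT summits at the members, 22 were matched by a KI summit no more than 500 bp away (45.8%), against 44.3% over all summits, and Klf6 kept 6 of its 7.

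H3K4me3 width in MEF KI was lower past 1.5-fold at Klf4 (0.186), Klf7 (0.449) and Klf10 (0.601), 3 of the 6 members with a region over a start base in both lists, and higher at none, where 25.1% of all genes were narrower and 0.533% wider. With regions within 500 bp, Klf2 (0.411) and Klf6 (0.658) joined them, 5 of 9, against 32.5% of genes. Counting all bases covered within 5 kb, the log2 ratio at Klf4 moved from −2.43 to −1.49, since its KI signal lay in separate pieces of which 1 sets the width, and that at Klf10 moved from −0.74 to −0.50, no longer past 1.5-fold. The median gene narrowed to 0.768 of its MEF WT width. Relative to that, Klf4 was at −2.05 on the log2 scale, Klf2 at −0.90 and Klf7 at −0.77, while Klf10 (−0.35) and Klf6 (−0.22) fell short of the threshold. Klf9, at 0.914, was the 1 member that lay above the median gene. The lower enrichment of the MEF KI lists, given above, moved with these differences, and its part in them was not tested.

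In MEF SG, 0 of 9 members passed the width threshold, where 5.03% of genes were narrower and 0.606% wider, and the ratios within 500 bp of a start site lay between 0.754 (Klf10) and 1.06 (Klf9). The H3K27ac sum was higher in SG at all 9 members in the comparison, past 2-fold at Klf2 (2.06-fold) alone and lower past it at none, against 12.0% of genes higher and 1.94% lower. The median gene was also higher, at 1.37-fold, and the median over the members was 1.41-fold. The Klf2 call ended relative to the median gene (0.59 on the log2 scale), without flanks (0.72) and with flanks of 50 kb (0.97). Of the 48 WT summits, 38 were matched in SG (79.2%, against 68.2% of all summits). KI and SG share the MEF WT libraries as control, so their values are not independent. At Klf4 the KI and SG ratios were 0.186 and 1.01 for width and 0.179 and 1.30 for H3K27ac, and at Klf10 they were 0.601 and 0.754 for width and 0.149 and 1.74 for H3K27ac.

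In MMTV-CAF SG, Klf3 was the 1 of 9 members narrower past 1.5-fold, at 0.436, where 5.87% of genes were narrower and 4.95% wider, and Klf5 lay just short of the threshold, at 1.49-fold. Klf5 was wider past it as bases covered within 5 kb (0.99 on the log2 scale) and relative to the median gene (0.63). Measured as bases covered within 5 kb of the main start site, the change at Klf3 was −0.07 on the log2 scale against −1.20 for the width of the region. The first SG piece reached +5538 bp, beyond that window, so this count cannot show the difference further downstream. The H3K27ac sum was higher past 2-fold at 3 of 10 members, Klf15 (from 0 to 85.2), Klf5 (2.67-fold) and Klf2 (2.21-fold), and lower at none, where 11.4% of genes were higher and 3.12% lower. In gene bodies without flanks Klf5 (0.66 on the log2 scale) and Klf2 (0.79) were not past 2-fold and Klf15 remained so (3.25), and relative to the median gene Klf2 (0.91) was not. The median member was at 1.38-fold and the median gene at 1.18-fold. Of 52 WT summits, 41 were matched in SG (78.8%, against 63.9% of all), including all 6 at Klf4 and all 7 at Klf9.

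In wound-healing SG, Klf10 was wider (1.91-fold) and Klf15 narrower (0.664) past 1.5-fold, 1 member each of 9, where 11.6% of genes were wider and 1.73% narrower. No member of 9 passed the H3K27ac threshold in either direction, against 17.9% of genes higher and 0.671% lower. The median member was at 1.39-fold and the median gene at 1.45-fold. Of 51 WT summits, 32 were matched in SG (62.7%, against 67.7% of all), with all 5 at Klf7 and all 4 at Klf10 among them and 2 of 5 at Klf9.

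**Figure D5:**
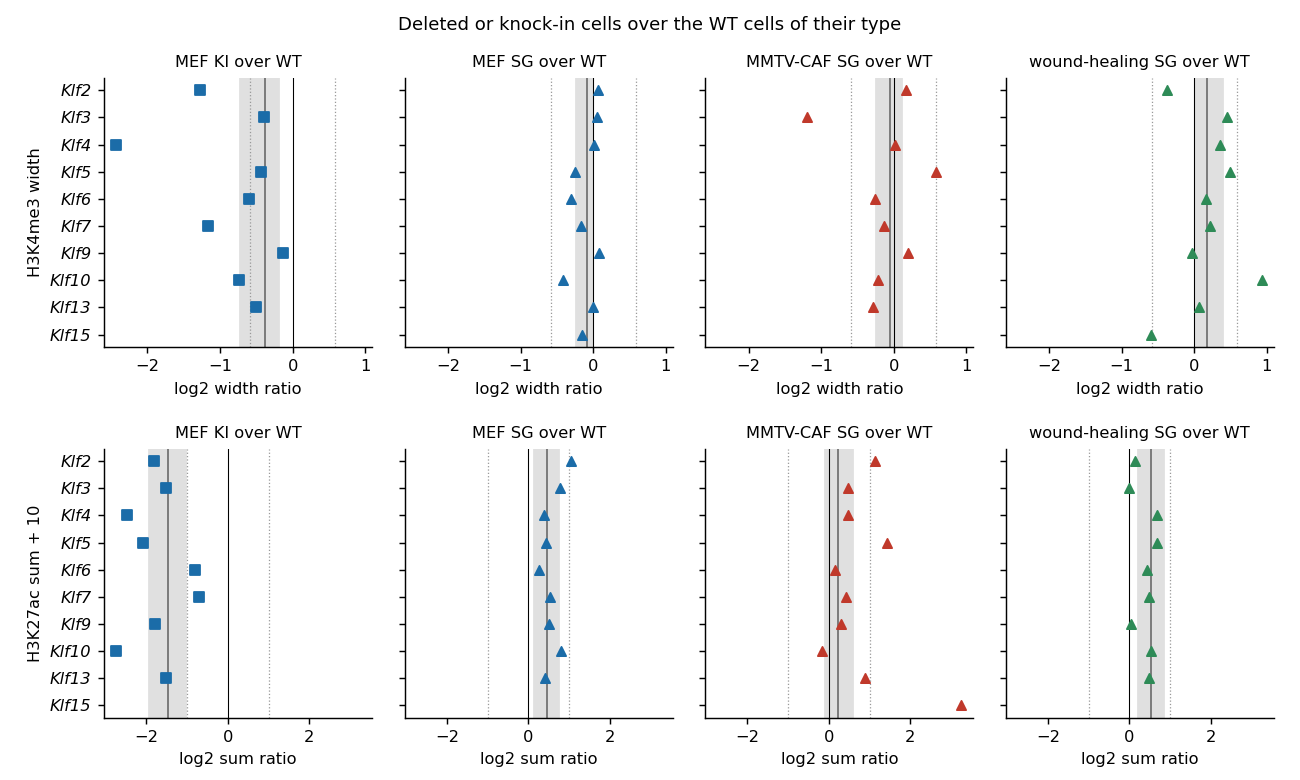
Log2 ratio of the KI and SG cells of MEF and of the SG cells of MMTV-CAF and wound-healing fibroblasts over the WT cells of the same type, for H3K4me3 width within 500 bp of a start site (top) and for the H3K27ac sum plus 10 (bottom), with 1 point per member and no point where a member was not compared. The grey line and band are the median and the interquartile range of all genes, dotted lines the thresholds of 1.5-fold and 2-fold. In MEF KI all 9 members compared lie below 0 in both rows, as does the grey band. In the SG panels Klf3 (width, MMTV-CAF), Klf10 (width, wound-healing) and Klf15 (sum, MMTV-CAF) lie outside the band and past the thresholds, as do other points such as Klf5 (sum, MMTV-CAF) and Klf15 (width, wound-healing).

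PRRX1 summits lay in the windows of 4 members in MMTV-CAF, where 22.1% of all genes held one, of 2 in wound-healing fibroblasts (16.8%) and of 1 in MEF (7.04%). In at least 1 type, 4 of the 10 members held a summit, against 31.0% of genes, and 1, Klf3, held one in all 3 types, against 2.95%. No member did in all 3 types when gene bodies were taken without flanks, where MEF had none, or when each list was limited to its 3048 strongest summits, where Klf9 was the 1 member left in MMTV-CAF. Klf4, Klf5, Klf6, Klf10, Klf13 and Klf15 had no summit in their windows in any list. The 8 summits were at different places, none within 500 bp of a PRRX1 summit of another type.

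At Klf3, the member with a summit in each type, the MEF summit lay outside the gene at +31.4 kb from the main start site. Its −log10 p was 6.72, rank 2177 of 3048, and no H3K27ac summit lay within 500 bp of it and no H3K4me3 region over it in any list. The MMTV-CAF summit (5.18, rank 6197 of 8000) was in an untranslated exon 145 bp from the alternative start site. In wound-healing fibroblasts there were 2, at −179 bp (6.32, rank 3117 of 5698) and at +1702 bp in an intron (5.39). The first of these and the MMTV-CAF summit had H3K27ac within 500 bp and lay under H3K4me3 in 6 of the 7 lists each, MEF KI being the list without.

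The strongest PRRX1 summit inside the windows was at Klf9, 463 bp upstream of its start site in MMTV-CAF (−log10 p of 14.8, rank 652 of 8000), whose sequence above holds neither word. It lay under H3K4me3 in all 7 lists and within 500 bp of an H3K27ac summit in MEF WT and both wound-healing lists. In the other types the nearest PRRX1 summit was 357 kb from the Klf9 body in wound-healing fibroblasts and 1000 kb from it in MEF. Klf2 had a weak summit in its intron at +1485 bp in MMTV-CAF (4.53, rank 7183 of 8000), under H3K4me3 in 6 lists. Klf7 had intronic summits at +66046 bp in MMTV-CAF (3.63) and +28925 bp in wound-healing fibroblasts (5.39), neither near a listed histone mark.

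Further out, 2 members without a summit in their windows had one within 50 kb. The site 25.7 kb upstream of Klf13 was 43rd of 3048 by −log10 p in MEF (39.2) and 1114th of 5698 in wound-healing fibroblasts (9.36), with the summits 27 bp apart, and no H3K27ac summit lay within 500 bp in any of the 7 lists. This is the window above with 8 TAATTA matches. Klf4 had a summit at −36.8 kb in MEF (15.3, rank 494) and another at +27.7 kb in wound-healing fibroblasts (4.50), again without H3K27ac. About 74.7 kb from the Klf3 start site, MMTV-CAF (8.74) and wound-healing (7.30) summits lay 47 bp apart.

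TAATTA was present at 1 of 1 member summit in MEF, 1 of 4 in MMTV-CAF and 1 of 3 in wound-healing fibroblasts, and CCACNCCC at none. At H3K27ac summits of the members, CCACNCCC was present at 5 of 48 windows in MEF WT (10.4%, against 8.11% of all summits), 1 of 52 in MMTV-CAF WT (1.92%, against 7.03%) and 5 of 51 in wound-healing WT (9.80%, against 8.11%). In promoters, from 250 bp before to 50 bp after the main start site, CCACNCCC occurred at Klf5, Klf7 and Klf13, 3 of 10 members, against 18.9% of all genes, and TAATTA at none, against 4.63%.

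In the rest of the Sp/KLF family, 16 genes, Klf16 and Sp3 were broad in all 3 WT types, 2 of the 6 with a region in each, against 6.71% of all genes, and none of the 16 held a PRRX1 summit in all 3, against 2.95%. In MEF KI, 9 of 9 in the comparison were lower in H3K27ac past 2-fold, where 76.0% of all genes were. In MEF, MMTV-CAF and wound-healing SG, 2 of 10, 3 of 12 and 2 of 9 were higher, against 12.0%, 11.4% and 17.9% of all genes, and 0, 1 and 0 lower, against 1.94%, 3.12% and 0.671%. Of 10 partners and modifiers of the family, Sin3a and Ep300, which encode the corepressor and the acetyltransferase named above, were broad in all 3 WT types, beside the same 6.71%. Kat2b, an acetyltransferase, was the 1 of the 10 with PRRX1 summits in all 3 (2.95% of genes), numbering 9 in MMTV-CAF, 3 for wound-healing fibroblasts and 2 for MEF. Of these 10, 8 were lower past 2-fold in MEF KI, near the 76.0% of all genes, and 0, 1 and 1 were higher in MEF, MMTV-CAF and wound-healing SG, beside the same 12.0%, 11.4% and 17.9%.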

How the data were processed

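ChIP-seq for H3K27ac, H3K4me3 and PRRX1 was compared through 17 peak lists, each from 1 library, the 7 inputs having served as controls for peak calling. After trimming (Trimmomatic) and alignment to mm9 (Bowtie), the authors discarded duplicate reads and called peaks over the matching input (MACS2). The H3K27ac and PRRX1 lists as deposited hold summits of 1 bp with a −log10 p each. The H3K4me3 lists as deposited hold broad regions, each scored by its fold enrichment relative to input, its −log10 p and its −log10 q. The lists give no read counts, so depth is unknown and no interval could be given. Whether the PRRX1 lists pool duplicate experiments was not given in the sources used here. The paper also names IgG as a control for PRRX1, and the series holds no IgG library.

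Gene models were those of GENCODE on NCBIM37, the same build as mm9, with 22350 protein-coding genes as background. For each gene, the widest H3K4me3 region over any annotated start base, the number and summed −log10 p of H3K27ac summits and the number of PRRX1 summits in the gene body with 10 kb on each side were taken. Ratios were called past 1.5-fold for width and past 2-fold for the sum plus 10, where a sum reached 20 in either list. With 1 library per group there was no test. All 10 members are named. Other family genes and partners are named where broad in all 3 WT types or with a PRRX1 summit in all 3, and for Klf4 and Klf13 the 3 genes most similar in width. The members and lists were chosen with earlier results of these data known, and the rule of 500 bp around a start site was added after seeing the data. Scripts used Python 3.11.15, numpy 2.4.6, pandas 2.3.3 and pysam 0.24.0 and were tested on simulated data.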

Additional observations from a re-analysis of the deposited data

Results flagged for a closer look

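At 4 members the H3K4me3 width within 500 bp of a start site passed 1.5-fold in at least 1 comparison of altered over WT cells and went the other way in another fibroblast type, with KI and SG alike in direction where MEF was used. Each group had 1 library, so these differences were not tested. The log2 ratio of SG over WT at Klf3 was −1.20 for MMTV-CAF but 0.45 for wound-healing fibroblasts. At Klf10 it was −0.74 for MEF KI, −0.41 for MEF SG and −0.22 for MMTV-CAF SG, and 0.93 for wound-healing SG. At Klf7 it was −1.16 for MEF KI, −0.17 for MEF SG and −0.14 for MMTV-CAF SG, and 0.22 for wound-healing SG. At Klf6 it was −0.60, −0.31 and −0.26 for MEF KI, MEF SG and MMTV-CAF SG, and 0.16 for wound-healing SG. Over all genes the medians of the same ratio were −0.38 for MEF KI, −0.09 for MEF SG, −0.05 for MMTV-CAF SG and 0.18 for wound-healing SG, so the wound-healing values of Klf6 and Klf7 lie near that of the median gene. Counted as bases covered within 5 kb of the start site, the 2 Klf3 values were −0.07 and 0.28, neither past 1.5-fold, and the 4 Klf10 values were −0.50, −0.02, −0.22 and 0.59. The window ends before the first Klf3 piece of MMTV-CAF SG does, so it cannot show the difference further downstream. By the same count Klf7 for MEF SG (0.02) and Klf6 for MMTV-CAF SG (0.03) had the opposite sign to their widths, so Klf3 and Klf7 would not meet the terms above by that count, which was not run for Klf6 in every comparison. MEF KI and MEF SG share their WT control. Other members also differed in sign without meeting these terms: Klf5 was at −0.44 and −0.25 for KI and SG of MEF against 0.58, just short of the threshold, for MMTV-CAF SG and 0.49 for wound-healing SG. For the last pair, Klf2 was at 0.17 and −0.37 and Klf13 at −0.29 and 0.07. As bases covered within 5 kb, the 4 Klf5 values were −0.68, −0.49, 0.99 and 0.71, so Klf5 would meet the terms by that count.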

How the results depend on the processing

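Of 215 counts of members recomputed under other settings, 175 stayed within 1.5 times the value given and 40 moved. Of 731 values of single members, 53 crossed the threshold of their fold. The sign changed in 48, none of them past the threshold as given, and 24 of the 48 came with division by the median over all genes, as at Klf6 (H3K27ac, MEF KI, from −0.80 to 0.67 on the log2 scale), Klf7 (from −0.70 to 0.77) and Klf9 (width, from −0.13 to 0.20). The cause was not tested. With regions within 500 bp of a start site, broad members in MEF KI went from 0 to 1 and narrower ones from 3 to 5. With bases covered within 5 kb, broad members in MEF KI were 2, MMTV-CAF SG had 0 narrower and 1 wider, wound-healing SG had 2 wider, and MMTV-CAF over wound-healing had 3 wider and 0 narrower. With regions of −log10 p of at least 10, 1 member was narrower in MEF KI and 0 in wound-healing SG. With each ratio divided by the median over all genes, members lower in H3K27ac in MEF KI fell from 7 to 2, 0 were higher in MEF SG, and 1 was wider in MMTV-CAF SG. By the same division, MMTV-CAF over MEF had 2 narrower and, in H3K27ac, 1 lower and 0 higher, wound-healing over MEF had 0 lower, and MMTV-CAF over wound-healing had 1 wider and, in H3K27ac, 1 lower and 0 higher. Without flanks, H3K27ac was higher at 1 member in MMTV-CAF SG, 2 in MEF SG and 4 in MMTV-CAF over wound-healing, and 0 members held a PRRX1 summit in MEF. With flanks of 50 kb, H3K27ac was lower at 1 and higher at 0 in MEF SG, higher at 1 in wound-healing SG, lower at 1 and higher at 0 in MMTV-CAF over MEF, lower at 4 in wound-healing over MEF and higher at 4 in MMTV-CAF over wound-healing, and PRRX1 summits lay at 5 members in wound-healing fibroblasts and 3 in MEF. With summits of −log10 p of at least 10, H3K27ac was higher at 1 in wound-healing SG and 0 in MMTV-CAF over MEF and lower at 2 in wound-healing over MEF, and with PRRX1 summits of at least 5, MMTV-CAF kept 2 members. With lists cut to equal size, 0 members were higher in MMTV-CAF over MEF, and PRRX1 summits lay at 1 member each in wound-healing fibroblasts and MMTV-CAF. No paired analysis was possible because each group had 1 library and no test was run, and for the same reason no replicate could be left out.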
